A study of Homo sapiens with 4 samples.

Results

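The tumour necrosis factor (TNF) superfamily was examined as a set of 45 genes in 4 groups by role: 16 ligands, 15 survival or costimulatory receptors, 8 death receptors and TRAIL decoy receptors, and 6 TRAF adaptors. A member was used for comparisons when its gene symbol stood on a probe with a value on all 4 arrays of the series. This left 29 of the 45 members, among 13446 genes measured in the same way. The measured members were 11 ligands, 7 survival or costimulatory receptors, 6 death receptors and 5 TRAFs, while neither TRAIL decoy receptor, TNFRSF10C or TNFRSF10D, had a named probe.

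RNA came from RC-K8, an established human diffuse large B-cell lymphoma line that dies by apoptosis when given interleukin-21 (IL-21), and from RC-K8-R, a derivative obtained by keeping RC-K8 in rising amounts of IL-21 over 10 weeks. Both were sampled without treatment and at 6 h of IL-21 at 100 ng/mL, giving 4 groups of 1 array. Every array carried the cell line's RNA in Cy5 and the same human reference RNA in Cy3. With no replicate cultures, and with RC-K8-R known only as a single selected line, every difference below is between single arrays and has no p-value.

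Ligands of this superfamily are mostly membrane proteins that act as trimers, and their receptors sort into those with a cytoplasmic death domain, which can recruit caspase-activating adaptors, and those that bind TRAF adaptors and signal to NF-kappaB and the MAP kinases. In B cells, CD40 and the receptors for BAFF and APRIL carry survival and differentiation signals, whereas FAS and the TRAIL receptors can trigger apoptosis. Several members, among them TNF, the lymphotoxins, CD40, FAS and TRAF1, are themselves known to be induced by NF-kappaB.

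Levels are given as log2 ratios of the cell line to the reference RNA, centred on each array's median, so that 0 is the median probe and a ratio can be followed from array to array but not from gene to gene. The deposited values state neither their log base nor their direction. They are read as log2 of sample over reference, from their range and the dyes; if they were natural logs, folds would be understated here but directions would hold. A difference counted as 2-fold when it was 1 or more on the log2 scale. The 6 members with more than 1 usable probe were TNF, TNFSF9, FAS, TNFRSF1A, TNFRSF10B and TRAF1, and their value is the median over probes with the SD between probes, which does not cover differences between cultures. As a guide to this error, the 2 probes of a gene differed by a median of 0.22 in the IL-21 response of RC-K8, 0.16 in that of RC-K8-R and 0.41 between the untreated lines, over 3302 genes with 2 probes. The 90th percentiles were 0.65, 0.50 and 1.20, and 1.32 between the treated lines, so between lines some probe pairs differed by more than the threshold.

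The arrays held values for 25246 to 26555 of 31095 probes. Log2 ratios were spread more widely in RC-K8-R (SD over probes 1.52 untreated, 1.56 treated) than in RC-K8 (1.26 and 1.31). B cell markers, of which 7 of 12 were measured, had median log2 ratios of 1.56 and 1.37 in RC-K8 and 1.77 and 2.13 in RC-K8-R. T and NK cell markers lay between -0.71 and -2.94, epithelial markers between -3.59 and -5.05 and fibroblast markers between -2.72 and -4.24. Myeloid markers lay closer to 0, between -0.51 and 0.34. Single markers moved between arrays. After IL-21 in RC-K8, 5 of the 7 B cell markers lay below 0, with a median of -0.54. CD79B, a B cell receptor subunit, was at -2.54, and POU2AF1 was 2-fold higher, at 1.28. Of all genes, 1.67% were 2-fold lower there and 1.44% higher. Between the treated lines 5 of 7 were 2-fold higher in RC-K8-R, with a median of 1.96, where 7.47% of all genes were. POU2AF1 lay at -0.59 there. Between the untreated lines 3 of 7 were, with a median of 0.78, where 3.35% of all genes were. Among genes with a mean log2 ratio over the 4 arrays of 1 or more, these shares were 22.5% and 10.5%. At 2 or more they were 42.5% and 21.1%. Of the 5 measured T and NK cell markers, 4 were lower by 2-fold or more in the resistant line without treatment and 3 with IL-21, and all 5 lay below 0 after IL-21 in RC-K8, with a median of -0.28. Such lower ratios in the resistant line were not particular to T and NK cell markers. Of 6 epithelial markers, 4 were 2-fold lower without treatment and 3 with IL-21, and of 4 fibroblast markers, 2 and 3 were. With IL-21, 1 fibroblast marker was 2-fold higher. Of 5 myeloid markers, 1 was lower in each condition. Of all genes, 10.2% and 10.3% were lower. The part of these marker differences in the results below was not tested. The RNA came from cultures of a B-cell lymphoma line and its derivative, so markers of other cell types are not read as numbers of such cells. In a bulk culture, fewer cells with a given RNA and less of it per cell cannot be told apart.

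Promoter sequences are shown for the members that were 2-fold lower with IL-21 in RC-K8 (TNF, TNFRSF21 and TRAF4) and for LTA and LTB, which lie next to TNF on chromosome 6 and were also lower on the same array. Each is the 250 bases before the annotated transcription start in RefSeq, build GRCh38.p14, written 5′ to 3′ on the gene's own strand, and promoters were found in that table for 23 of the 29 measured members. Capitals mark every match, on either strand, to a loose NF-kappaB-type pattern, GGG then any 5 bases then CC, or to a STAT-type pattern, TTCNNNGAA. The window of TNF lies at chr6:31575315-31575564 on the plus strand, LTA at chr6:31571849-31572098 on the plus strand and LTB at chr6:31582426-31582675 on the minus strand. That of TNFRSF21 lies at chr6:47309906-47310155 on the minus strand and TRAF4 at chr17:28743761-28744010 on the plus strand.
TNF: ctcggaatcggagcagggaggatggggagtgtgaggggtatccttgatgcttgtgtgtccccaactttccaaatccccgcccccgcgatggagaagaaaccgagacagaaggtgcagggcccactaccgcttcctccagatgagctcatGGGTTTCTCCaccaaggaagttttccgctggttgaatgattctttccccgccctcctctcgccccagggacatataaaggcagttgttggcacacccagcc
LTA: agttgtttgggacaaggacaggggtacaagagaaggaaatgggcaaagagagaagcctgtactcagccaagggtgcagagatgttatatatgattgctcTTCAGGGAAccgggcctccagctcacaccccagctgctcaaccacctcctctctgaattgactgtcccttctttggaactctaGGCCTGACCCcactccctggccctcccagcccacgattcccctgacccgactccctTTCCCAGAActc
LTB: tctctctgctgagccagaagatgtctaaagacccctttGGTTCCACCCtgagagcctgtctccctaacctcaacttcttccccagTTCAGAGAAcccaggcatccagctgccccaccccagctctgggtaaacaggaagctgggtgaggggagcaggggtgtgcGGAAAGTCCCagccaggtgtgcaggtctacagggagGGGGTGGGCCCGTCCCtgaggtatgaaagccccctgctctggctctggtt
TNFRSF21: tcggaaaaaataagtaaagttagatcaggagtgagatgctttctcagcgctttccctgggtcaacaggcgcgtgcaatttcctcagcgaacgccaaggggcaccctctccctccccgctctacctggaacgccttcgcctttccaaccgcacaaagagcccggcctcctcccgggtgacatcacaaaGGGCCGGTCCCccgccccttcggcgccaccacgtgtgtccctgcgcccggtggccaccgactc
TRAF4: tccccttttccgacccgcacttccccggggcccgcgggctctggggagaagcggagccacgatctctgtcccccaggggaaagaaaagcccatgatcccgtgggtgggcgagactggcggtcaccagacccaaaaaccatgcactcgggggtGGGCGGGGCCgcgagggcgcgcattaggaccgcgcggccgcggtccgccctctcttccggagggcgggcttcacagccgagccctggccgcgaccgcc

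In TNF the single match was the NF-kappaB-type GGGTTTCTCC, whose first base stood at -101 from the start. LTB held the NF-kappaB-type sites GGTTCCACCC at -212 and GGAAAGTCCC at -86, 4 overlapping ones from -50, and the STAT-type TTCAGAGAA at -165. In LTA there were 2 STAT-type matches, TTCAGGGAA at -151 and TTCCCAGAA at -12, and 1 NF-kappaB-type match at -68. TNFRSF21 had overlapping NF-kappaB-type matches at -63 and -62 and TRAF4 had 1 at -98, with no STAT-type match in either window.

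The loose NF-kappaB-type pattern is common, being present in 53.7% of 27303 promoters of this length, and 17 of the 23 measured members with a promoter held it. Of these 23 members, LTA, LTB and TNFSF11 held the STAT-type pattern, which 6.78% of all promoters hold. A stricter NF-kappaB-type pattern, GGGA, any base, TT, any base and CC, stood in LTB alone among the 23 and in 1.27% of all promoters. The octamer ATGCAAAT, a B cell promoter element, stood in none of the 23 and in 1.66% of all promoters. These are matches of letters in a short window and show nothing about binding.

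**Figure D1:**
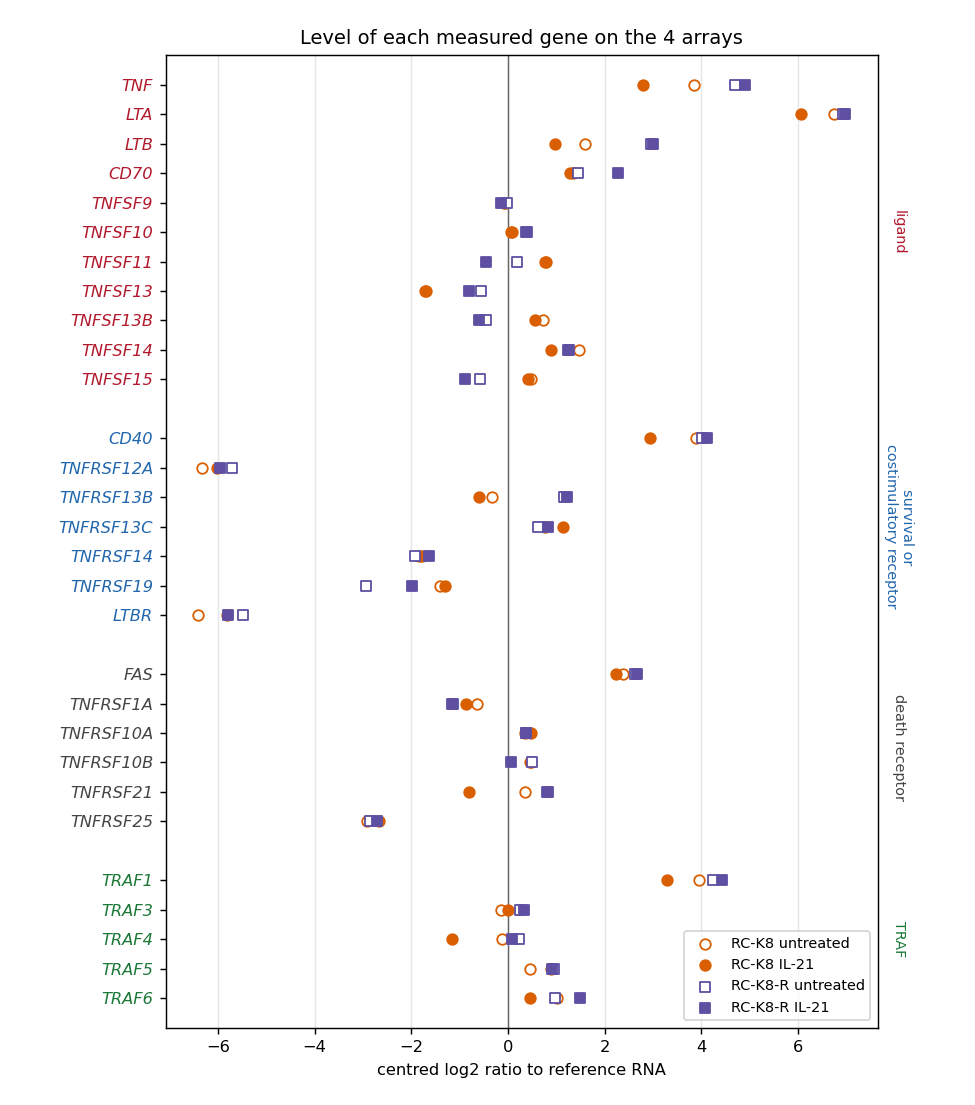
Centred log2 ratio to the reference RNA (horizontal axis) of each of the 29 measured members on the 4 arrays, with open symbols for untreated and filled symbols for IL-21, circles for RC-K8 and squares for RC-K8-R; some symbols cover each other. Each symbol is 1 array. The filled circle of TNF, at 2.79, lies left of its other 3 symbols, which lie between 3.85 and 4.90, and TNFRSF21 and TRAF4 show the same arrangement.

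IL-21 was compared with no treatment in RC-K8, the line that responds with apoptosis. After IL-21, RC-K8 had lower TNF, lower TNFRSF21, a death domain receptor, and lower TRAF4, a TRAF adaptor, each by about the threshold of 2-fold. These 3 were the members past 2-fold on the lower side, 3 of 29, where 1.67% of all genes were. No member was 2-fold higher, where 1.44% of all genes were. Of the 29, 19 lay below 0, where 54.7% of all genes did, and the median was -0.06, against -0.04 over all genes.

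Among the ligands, TNF, the founding cytokine of the family, had log2 ratios of 3.85 in untreated RC-K8 and 2.79 after IL-21, with 4.71 and 4.90 on the corresponding RC-K8-R arrays. Treated RC-K8 was therefore the lowest of the 4 arrays. The difference was -1.06 (SD between 2 probes 0.08), a 2.08-fold lower ratio, from probes at -1.11 and -1.002. After a loess correction for level it was -0.78.

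The lymphotoxin genes on either side of TNF were lower by less than 2-fold. LTA, which forms soluble lymphotoxin alpha, had log2 ratios of 6.74 untreated and 6.06 with IL-21 in RC-K8, and 6.93 and 6.98 in RC-K8-R. LTB, the membrane-anchoring partner of LTA, had ratios of 1.59 and 0.98 in RC-K8 and 2.96 and 3.0 in RC-K8-R. As with TNF, treated RC-K8 was the lowest array for both. For LTA this order depends on the processing, since treated RC-K8-R minus treated RC-K8 was -0.63 after the loess correction. The IL-21 difference in RC-K8 was -0.68 for LTA and -0.60 for LTB; for LTA it was -0.19 after the loess correction. TNFSF14, the ligand LIGHT, was at -0.58, against 0.01 in RC-K8-R. Of the 11 measured ligands, 10 lay below 0 in RC-K8, but the 7 apart from TNF, LTA, LTB and TNFSF14 lay between -0.18 and 0.02.

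Among the survival and costimulatory receptors, CD40, the receptor for T cell help, came closest to the threshold. Its log2 ratios were 3.89 untreated and 2.94 with IL-21 in RC-K8, and 4.02 and 4.12 in RC-K8-R. Treated RC-K8 again stood below the other arrays, by 0.95 from its own untreated array on the single CD40 probe. The receptors for BAFF and APRIL differed less, at 0.36 for TNFRSF13C, the BAFF receptor, and -0.26 for TNFRSF13B, also called TACI. LTBR, the lymphotoxin beta receptor, was at 0.60, and TNFRSF12A, the receptor for TWEAK, was at 0.30. Both of these lay far below the reference on every array, with log2 ratios from -5.48 to -6.41 for LTBR and from -5.72 to -6.32 for TNFRSF12A. TNFRSF14 was at 0.06 and TNFRSF19 at 0.10, which completes the 7 measured receptors of this kind.

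The death receptors that bind FAS ligand, TNF and TRAIL hardly differed in RC-K8. FAS was at -0.16 (SD between 2 probes 0.06) and TNFRSF1A, the main TNF receptor with a death domain, at -0.22 (SD 0.14). The TRAIL receptors TNFRSF10A and TNFRSF10B were at 0.13 and -0.01 (SD 0.11 for TNFRSF10B), and TNFRSF25 at 0.26. TNFRSF21 was the exception among the 6. Its log2 ratios were 0.35 untreated and -0.81 with IL-21 in RC-K8, and 0.80 and 0.84 in RC-K8-R, so that treated RC-K8 was the lowest array and the only one below 0. The difference of -1.16, a 2.24-fold lower ratio, rests on 1 probe. A further TNFRSF21 probe had ratios of 0.77, 0.92 and 0.93 on the other 3 arrays and was blank on treated RC-K8.

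The TRAF adaptors did not move together in RC-K8. TRAF4 had log2 ratios of -0.12 untreated and -1.17 with IL-21, a 2.06-fold lower ratio, and 0.22 and 0.09 in RC-K8-R. TRAF1, an NF-kappaB-induced adaptor, had ratios of 3.95 and 3.28 in RC-K8 and 4.24 and 4.43 in RC-K8-R. For TRAF6, which also serves Toll-like and interleukin-1 receptors, they were 1.02 and 0.45 in RC-K8 and 0.97 and 1.497 in RC-K8-R. In all 3 the treated RC-K8 array was the lowest. For TRAF1 this order depends on the processing. After the loess correction, the TRAF1 difference from untreated RC-K8 was -0.38 for treated RC-K8 and -0.42 for untreated RC-K8-R. Differences in RC-K8 were -1.04 for TRAF4, -0.67 for TRAF1 (SD between 2 probes 0.02) and -0.57 for TRAF6, and TRAF1 was at -0.38 after the loess correction. TRAF3, a brake on non-canonical NF-kappaB signalling, was at 0.13, and TRAF5 was at 0.43.

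**Figure D2:**
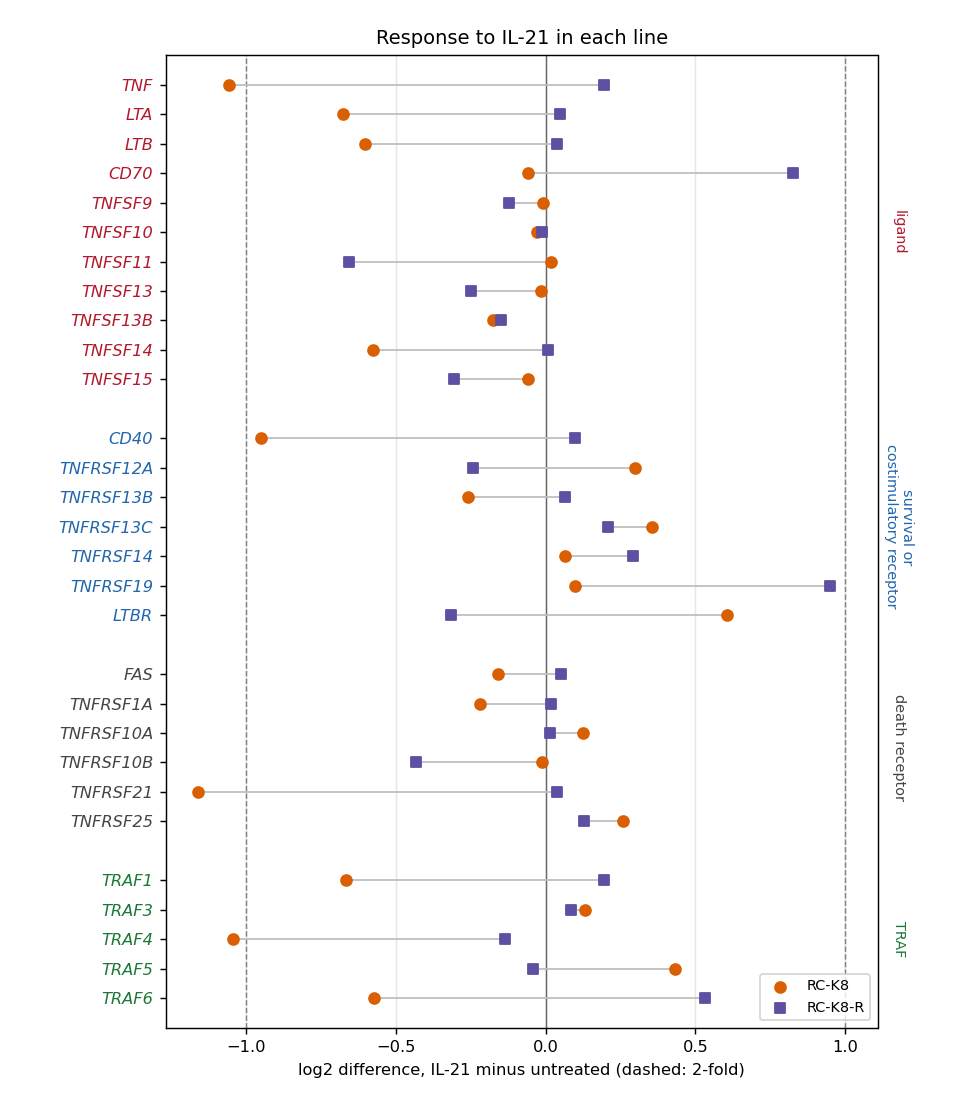
Log2 difference, IL-21 minus untreated (horizontal axis), for each of the 29 measured members in RC-K8 (orange circles) and RC-K8-R (purple squares), joined by a grey line, with dashed lines at 2-fold. Each symbol is a difference between 2 single arrays. TNFRSF21, TNF and TRAF4 pass the lower line in RC-K8, at -1.16, -1.06 and -1.04, and no member passes either line in RC-K8-R.

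The same treatment was then examined in RC-K8-R. No member was 2-fold higher or 2-fold lower there, where 0.342% and 0.602% of all genes were. Below 0 there were 11 of the 29, where 48.9% of all genes were, and the median was 0.04, which turned just below 0 under quantile normalization, equal deviation scaling and the loess correction. TNF was at 0.19 (SD between probes 0.09), CD40 at 0.10, TNFRSF21 at 0.04 and TRAF4 at -0.14, and LTA and LTB were both near 0, at 0.05 and 0.04. FAS (0.05) and the TRAIL receptor TNFRSF10A (0.01) also stayed close to their untreated ratio, while TNFRSF10B was at -0.43 (SD 0.03).

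The values farthest from 0 in RC-K8-R belonged to other members than in RC-K8. TNFRSF19, a receptor also called TROY, was at 0.95, with log2 ratios of -2.93 untreated and -1.98 with IL-21, both below the reference. CD70, the ligand of the costimulatory receptor CD27, was at 0.83. Its ratios were 1.46 untreated and 2.28 with IL-21 in RC-K8-R, against 1.34 and 1.28 in RC-K8, so that treated RC-K8-R was the highest array. TNFSF11, the ligand RANKL, was at -0.66 in RC-K8-R and 0.02 in RC-K8. All 3 rest on 1 probe.

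Subtracting the RC-K8 response from that of RC-K8-R left 4 of 29 members at 2-fold or more on the positive side, where 2.47% of all genes were. The share depended on the level, at 6.79% of all genes with a mean log2 ratio of 1 or more. It was 15.4% of those at 2 or more, as TNF and CD40 have, and 1.99% of those below 1, as TNFRSF21 and TRAF6 have. TRAF6, at 0.98, lay just below the cut of 1. The difference of responses was 1.25 for TNF (SD between probes 0.17), 1.198 for TNFRSF21, 1.10 for TRAF6 and 1.05 for CD40. The TRAF6 response was -0.57 in RC-K8, against 0.53 in RC-K8-R, so neither response reached 2-fold. No member reached 2-fold in the negative direction, where 2.31% of all genes did; LTBR came nearest at -0.92. After the loess correction TNF was at 0.80, CD40 at 0.62 and LTBR past the threshold. That left 2 members positive and 1 negative, where 1.99% and 2.55% of all genes were. These differences were not tested, since no group had a replicate.

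Members well above the reference shared the direction of the response in RC-K8. Mean log2 ratios over the 4 arrays were 1 or more for TNF, LTA, LTB, CD70, TNFSF14, CD40, FAS and TRAF1. In RC-K8 all 8 were below 0, with a median of -0.64 and values from -1.06 to -0.06. In RC-K8-R all 8 were above 0, with a median of 0.07. LTA, LTB, TNFSF14, CD40 and FAS were so near 0 there that their sign turned under some settings. TRAF1 was at 0.19 in RC-K8-R from probes of opposite sign, at -0.08 and 0.47. For the remaining 21 members the median was -0.01 in each line. Over all 1340 genes with a mean ratio of 1 or more, 683 were below 0 in RC-K8 and the median was -0.01, and in RC-K8-R 567 were below 0 with a median of 0.03. Mean ratios of 2 or more were found in 332 genes, among them TNF, LTA, LTB, CD40, FAS and TRAF1. Of these 332, 200 lay below 0 in RC-K8, with a median of -0.13, and the share at 2-fold lower was 12.0%. For RC-K8-R, 125 of the 332 lay below 0, with a median of 0.06. The grouping by ratio was chosen after the values were seen, the ratio and the response share arrays, and TNF, LTA and LTB are neighbours.

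**Figure D3:**
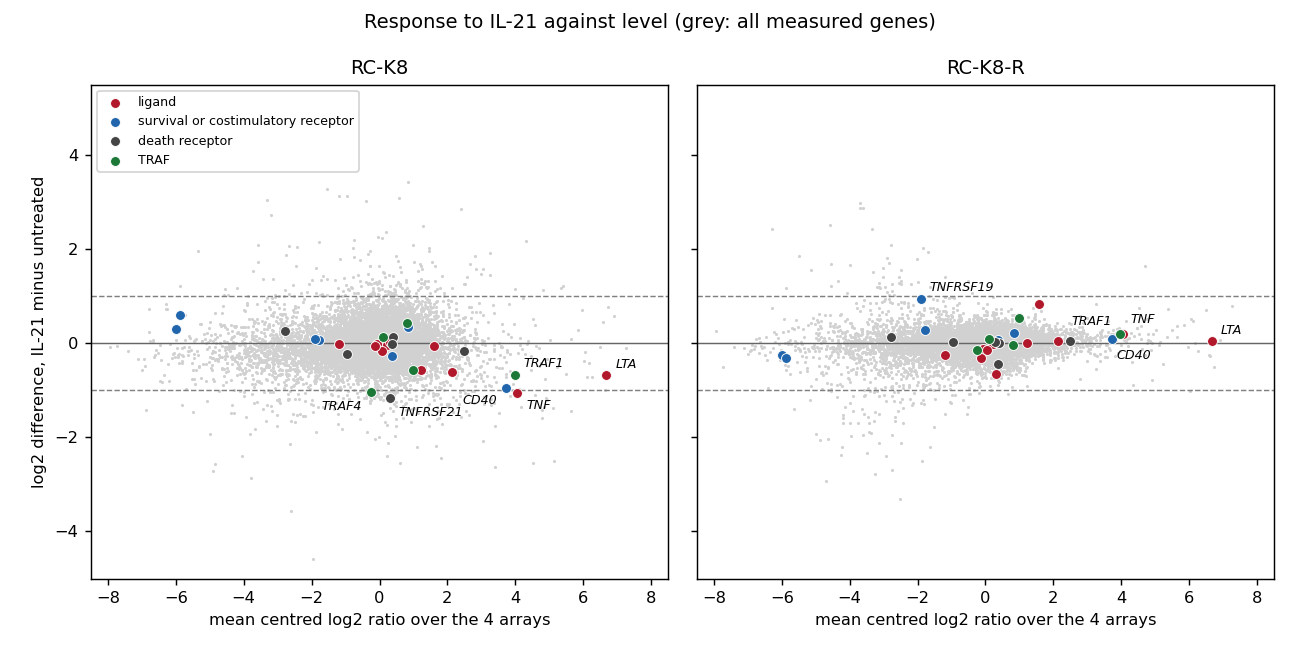
Log2 difference, IL-21 minus untreated (vertical axis), against the mean centred log2 ratio over the 4 arrays (horizontal axis) for all 13446 measured genes (grey) and the 29 members (coloured by role), in RC-K8 (left) and RC-K8-R (right), with dashed lines at 2-fold. Each point is 1 gene. The 8 members with a mean ratio of 1 or more lie between -1.06 and -0.06 in RC-K8 and between 0.01 and 0.83 in RC-K8-R.

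RC-K8-R was next compared with RC-K8, both untreated. RC-K8-R had higher TNFRSF13B, a receptor for BAFF and APRIL, higher LTB and higher TNFSF13, the ligand APRIL. It had lower TNFSF13B, the ligand BAFF, lower TNFSF15 and lower TNFRSF19. The 3 higher members compare with 3.35% of all genes at 2-fold higher, and the 3 lower members with 10.2% at 2-fold lower, so the share of members on the lower side was close to that of all genes. Of all genes with a mean log2 ratio of 1 or more, 10.5% were 2-fold higher, and of those at 2 or more, as LTB has, 21.1% were. Below 1, where TNFRSF13B and TNFSF13 lie, the share was 2.55%. The median over members was 0.13, against 0.05 over all genes, and took the other sign under quantile normalization, equal deviation scaling and the loess correction. With each array scaled to an equal median absolute deviation, 5 members were higher and 3 lower, where 3.59% and 8.58% of all genes were. LTBR and TNFRSF12A were added by this scaling, and both also passed under quantile normalization.

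The BAFF and APRIL system held 3 of these 6 genes, and they did not all go the same way. TNFRSF13B had log2 ratios of -0.34 and -0.60 in untreated and treated RC-K8 and 1.15 and 1.21 in RC-K8-R. Both RC-K8-R arrays thus stood above both RC-K8 arrays, with a difference of 1.48 between the untreated lines, or 2.80-fold. TNFSF13 had ratios of -1.70 and -1.72 in RC-K8 and -0.56 and -0.82 in RC-K8-R, a difference of 1.14 (2.20-fold). In the other direction, TNFSF13B had ratios of 0.73 and 0.56 in RC-K8 and -0.45 and -0.60 in RC-K8-R, a difference of -1.18 (2.27-fold lower). The BAFF receptor TNFRSF13C differed little, at -0.15. A further receptor of this system, TNFRSF17 or BCMA, was blank on treated RC-K8, and its other ratios were 3.59 in untreated RC-K8 and 4.69 and 4.74 in RC-K8-R.

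TNFSF15, a ligand of TNFRSF25, had log2 ratios of 0.48 and 0.42 in untreated and treated RC-K8 and -0.58 and -0.89 in RC-K8-R, a difference of -1.06 between the untreated lines. TNFRSF19 had ratios of -1.40 and -1.30 in RC-K8 and -2.93 and -1.98 in RC-K8-R, a difference of -1.54. LTB was higher by 1.38, a 2.59-fold difference, and by 0.81 after quantile normalization and 0.84 after the loess correction, below the threshold. TNF was at 0.86 with probes at 0.23 and 1.49, and at 0.02 and 0.16 under the same 2 settings. The death receptors lay between -0.52 for TNFRSF1A and 0.45 for TNFRSF21, and the TRAFs between -0.06 for TRAF6 and 0.49 for TRAF5. For LTA, CD70, CD40, FAS and TRAF1, with differences from 0.12 to 0.29, the sign turned under quantile normalization and the loess correction, and no direction is read.

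With IL-21 in both lines, RC-K8-R had higher TNF, LTB, TNFRSF13B, TNFRSF21, TRAF4, CD40, TRAF1, TRAF6 and CD70 than RC-K8, and lower TNFSF15, TNFSF11 and TNFSF13B. These were 9 of 29 members at 2-fold higher, where 7.47% of all genes were, and 3 of 29 at 2-fold lower, where 10.3% of all genes were. The share 2-fold higher depended on the level, at 22.5% of all genes with a mean log2 ratio of 1 or more, 42.5% of those at 2 or more and 5.80% of those below 1. Of the 9 members, TNF, LTB, CD40, TRAF1 and CD70 had a mean ratio of 1 or more, and all of them but CD70 had 2 or more. TRAF6 lay just below 1, at 0.98. Under quantile normalization, equal deviation scaling and the loess correction alike, 6 members were 2-fold higher. The shares of all genes were 6.66%, 7.27% and 6.81% under these settings. The median over members was 0.32, against -0.03 over all genes. This comparison shares the treated RC-K8 array with the IL-21 response of RC-K8, in which TNF, TNFRSF21, TRAF4 and CD40 were low.

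TNF was 4.32-fold higher in treated RC-K8-R (log2 2.11, SD between probes 0.73) and LTB 4.05-fold higher (log2 2.02). TNF was at 1.33 after quantile normalization, 1.56 with equal deviation scaling and 1.01 after the loess correction, and LTB at 1.54, 1.73 and 1.36. TNFRSF13B was 3.51-fold higher and TNFRSF21 3.13-fold higher, and TRAF4 was 2.39-fold higher. These 5 stayed above 2-fold under quantile normalization, equal deviation scaling and the loess correction. CD40 (1.18), TRAF1 (1.15, SD 0.35), TRAF6 (1.05) and CD70 (1.00) did not. After the loess correction CD40 was at 0.09, TRAF1 at 0.02, TRAF6 at 0.82 and CD70 at 0.56, while TNFSF13 passed at 1.04. LTA, at 0.91, took the other sign there, at -0.63.

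On the lower side, TNFSF15 was at -1.31 and TNFSF13B at -1.16 between the treated lines, close to their values of -1.06 and -1.18 between the untreated lines. TNFSF11 was at -1.24, with log2 ratios of 0.76 and 0.78 in untreated and treated RC-K8 and 0.19 and -0.46 in RC-K8-R. TNFRSF19, lower by 1.54 between the untreated lines, was at -0.69 here. Among the death receptors other than TNFRSF21, values lay between -0.40 for TNFRSF10B and 0.45 for FAS, and FAS turned to -0.25 after the loess correction.

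**Figure D4:**
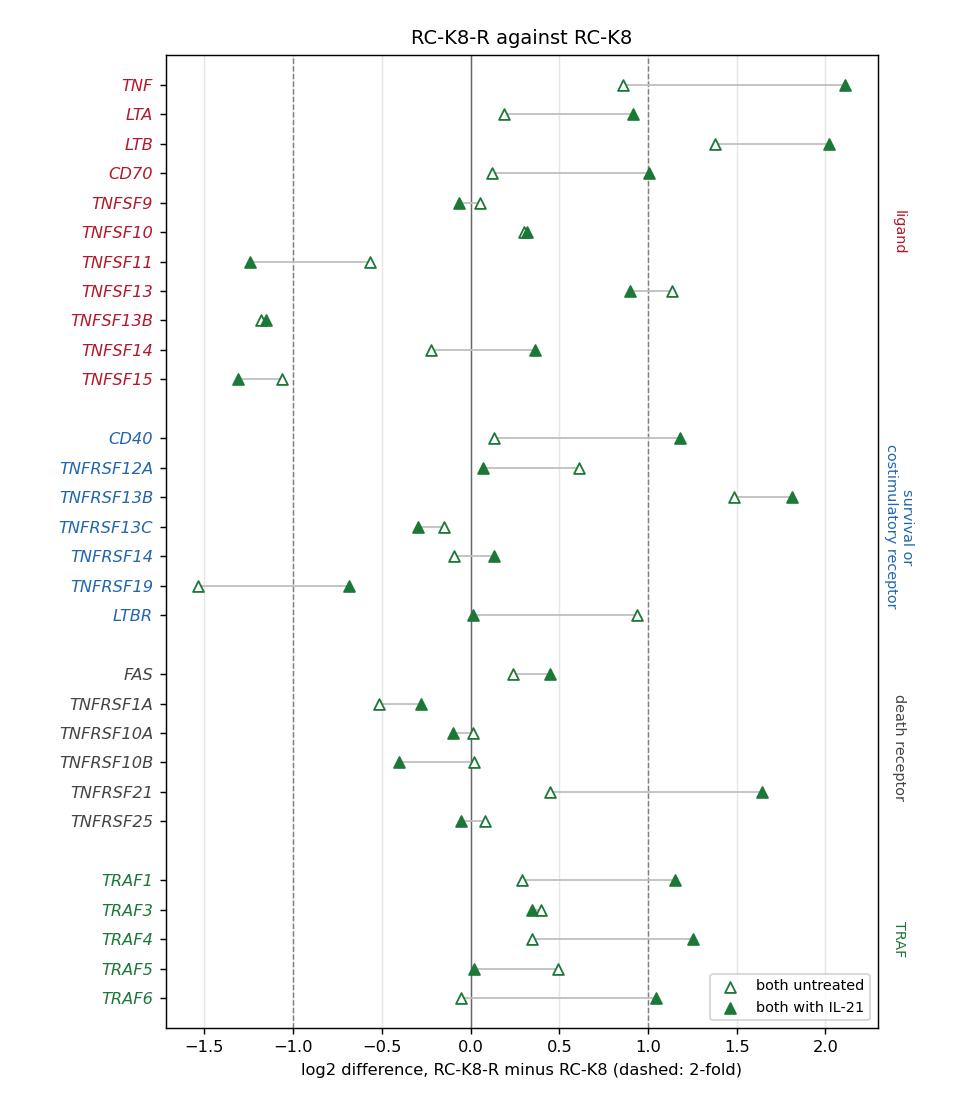
Log2 difference, RC-K8-R minus RC-K8 (horizontal axis), for each of the 29 measured members with both lines untreated (open triangles) and both given IL-21 (filled triangles), joined by a grey line, with dashed lines at 2-fold. Each symbol is a difference between 2 single arrays. TNFSF13B lies at -1.18 and -1.16 and TNFRSF13B at 1.48 and 1.81, past the lines in both conditions, whereas TNFRSF21 passes with IL-21 alone, at 1.64 against 0.45.

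Of the members with no value on all 4 arrays, 5 had no named probe (CD40LG, TNFRSF9, TNFRSF10C, TNFRSF10D and TRAF2), TNFSF12 was blank on every array, and 10 had values on 1 to 3 arrays. FASLG, the ligand of FAS, had log2 ratios of 1.58 and 1.42 in untreated and treated RC-K8 and -0.04 in untreated RC-K8-R, and was blank on treated RC-K8-R. TNFSF4 and TNFSF8, ligands of TNFRSF4 and TNFRSF8, had values on treated RC-K8-R alone, at 2.81 and 1.42. That array had the most values, with 1.87% of all probes present on it alone. TNFRSF18 (1.06 and 1.199) and TNFRSF1B (-1.12 and -1.34) had values on both RC-K8-R arrays and neither RC-K8 array, a pattern found in 2.48% of all probes. CD27 was blank on untreated RC-K8 and lay at -0.08, -0.75 and -0.29 on the other arrays. TNFRSF4 was blank on untreated RC-K8-R and lay at 0.26, 0.16 and 0.02 elsewhere, TNFRSF8 had -0.97 on untreated RC-K8 alone, and TNFRSF11A had -1.85 on untreated RC-K8-R alone. A blank is a missing value in the deposited table and is not read as absence of the RNA.

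Genes that act below these receptors, together with genes induced by NF-kappaB in B cells, were counted from a list of 81, of which 67 were measured. The induced genes were 18 of the 67, among them CD80, CCL4, VCAM1, CCR7, IRF4 and JUNB. In RC-K8, IL-21 went with higher TRAFD1 (1.76), a TRAF-type zinc finger protein, higher CD80 (1.16, from probes at 0.40 and 1.92), lower NFKBIE (-1.34), an inhibitor of NF-kappaB, and lower MAP3K1 (-1.25), a kinase of the JNK pathway. These are 2.99% of the 67 in each direction, against 1.44% of all genes higher and 1.67% lower. The other 63 were within 2-fold. In RC-K8-R all 67 were, where 0.342% of all genes were 2-fold higher and 0.602% lower. The 8 measured genes of the death arm, which include FADD, TRADD, CASP8, CASP10, CFLAR and BID, lay between -0.40 and 0.18 in RC-K8 and between -0.18 and 0.13 in RC-K8-R. BID is uncertain in RC-K8, since its probes were at -0.38, -0.23 and 1.43.

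Between the untreated lines, 7 of the 67 (10.4%) were 2-fold higher in RC-K8-R and 3 (4.48%) were lower, against 3.35% and 10.2% of all genes. The higher genes were NFKBIE (1.73), CD80 (1.52), the deubiquitinase OTULIN (1.52), MAP3K1 (1.48), JUNB (1.31), the NF-kappaB subunit RELA (1.09) and TNIP1 (1.02), a partner of TNFAIP3. RELA is uncertain, since its probes were at -1.07 and 3.25. The lower genes were the chemokine CCL4 (-2.01), USP2 (-1.31) and VCAM1 (-1.02). With IL-21, 9 of the 67 (13.4%) were higher and 4 (5.97%) were lower, against 7.47% and 10.3% of all genes. The higher genes were led by NFKBIE (3.26), MAP3K1 (2.67), OTULIN (1.83) and the non-canonical subunit RELB (1.44), and the lower ones by VCAM1 (-2.15). The remaining genes past 2-fold were IRF4 (1.37), JUNB (1.35), CCR7 (1.34), TNIP1 (1.29) and MAP3K8 (1.15) on the higher side, and CCL4 (-1.36), USP2 (-1.35) and TRAFD1 (-1.24) on the lower. These shares depend on the level. Of all genes with a mean log2 ratio of 1 or more, 10.5% were 2-fold higher untreated and 22.5% with IL-21, and 0.299% and 2.54% were lower. For genes below 1, 2.55% and 5.80% were higher, and 11.3% and 11.2% were lower. The 67 genes were not examined under quantile normalization, equal deviation scaling or the loess correction. Of 9 further superfamily genes outside the 45, 4 were measured, among them the decoy receptor gene TNFRSF11B, and none was 2-fold different in any comparison.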

How the data were processed

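The authors deposited 1 log ratio per probe and array, taken here as log2 of sample (Cy5) over reference (Cy3) from the dyes per the labels and from the range of the values, -10.4 to 7.94. Per the labels' protocols, total RNA was extracted with Trizol; how spots were background-corrected, normalized or filtered is not stated there. The platform annotation gave 1 gene symbol for 25570 of 31095 probes and several for 28, and left 5497 unnamed. Entrez numbers of 25541 probes matched RefSeq genes of GRCh38.p14, used for names and promoters, and no symbol changed.

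Probes without a blank on any array numbered 23260, and their median was subtracted from each array. A gene's difference is the median of the differences of its probes. All 13446 genes were processed together and the members read from that table. With 1 array per group, no test was run, a difference of 2-fold or more was called, and member counts were read against the share of all genes called. The number of arrays limits the precision.

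Every member past 2-fold in any of the 5 comparisons was named with its level on each array, and the pathway list by the same threshold. The members and lists were chosen with earlier results of these data known. The alternatives were no centring, quantile normalization, equal median absolute deviation, a loess correction on level (span 0.3, 3 iterations), the mean over probes, the probe of highest ratio, probes present on the arrays compared, genes whose several probes share a direction, and thresholds of 1.5-fold and 3-fold. The steps were tested on simulated data. Python 3.11.15, pandas 2.3.3 and statsmodels 0.14.6 were used.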

Additional observations from a re-analysis of the deposited data

Results flagged for a closer look

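In 4 members the IL-21 responses of the lines had opposite signs and lay 2-fold or more apart, with RC-K8 below 0 and RC-K8-R above. The difference, RC-K8-R minus RC-K8, was 1.25 on the log2 scale for TNF, 1.198 for TNFRSF21, 1.10 for TRAF6 and 1.05 for CD40. With 1 array per group these differences were not tested. The positive responses in RC-K8-R were 0.53 for TRAF6, 0.19 for TNF (SD between 2 probes 0.09), 0.10 for CD40 and 0.04 for TNFRSF21, and that of CD40 took the other sign under 1 alternative setting.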

How the results depend on the processing

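No paired analysis was possible because each group has 1 array and no difference was tested. Of 175 values of members past 2-fold under 7 alternative settings, none reversed, 18 fell below 2-fold and 153 moved by less than the median SD between probes. Much of this stability was fixed in advance. Leaving out the centring shifts whole arrays slightly, the mean of 2 probes equals their median, and settings that choose probes can hardly move members with 1 probe. Of the 25 values per setting, 15 moved by less than that SD with the loess correction, 18 with quantile normalization and 21 with equal median absolute deviation. Of those that fell below 2-fold, 8 came with the loess correction, 6 with quantile normalization and 4 with equal median absolute deviation. The cause was not tested. Counts of members past the threshold were as follows. With equal median absolute deviation, 5 members were higher in untreated RC-K8-R, against 3. With the loess correction, the difference of responses had 2 members higher and 1 lower, against 4 and 0. Members higher in treated RC-K8-R numbered 6 under quantile normalization, equal median absolute deviation and loess, against 9. Members lower with IL-21 in RC-K8 numbered 4 with equal median absolute deviation (CD40 added) and 2 with loess (without TNF), against 3. Quantile normalization and loess gave 4 higher in untreated RC-K8-R, and quantile normalization 3 higher in the difference of responses. The members' median took the other sign under these 3 settings in the RC-K8-R response (-0.03 to -0.004, against 0.04) and between untreated lines (-0.10 to -0.04, against 0.13). Changing the threshold or leaving out genes changes counts by construction. The shares of all genes past 1.5-fold and 3-fold, or among genes with several probes, were not computed. The counts that follow are therefore not read as results about the members. At 1.5-fold, IL-21 gave 1 higher and 7 lower members in RC-K8 and 2 higher and 1 lower in RC-K8-R, untreated RC-K8-R had 6 higher, and the difference of responses had 11 higher and 2 lower. At 3-fold, treated RC-K8-R had 4 higher members, and the count was 0 for members lower in RC-K8 with IL-21, for both directions between untreated lines, for members lower in treated RC-K8-R and for the difference of responses. Restricted to genes whose several probes share a direction, 4 members remained in the RC-K8 response (median -0.44, 1 lower) and 4 in the difference of responses (median 0.55, 1 higher); 2 members were higher in treated RC-K8-R and 0 lower, and 0 were called either way between untreated lines.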
